A study of Rattus norvegicus with 40 samples.

Results

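The transcriptional difference between SHR-Tti2+/- rats and their wild-type SHR littermates was compared between fat and hippocampus. All samples labelled peritoneal fat or hippocampus were taken, which gave 20 of the 40 samples of the series, with 5 per tissue and genotype. SHR (SHR/OlaIpcv) is an inbred, spontaneously hypertensive rat strain. The Tti2+/- rats carried 1 copy of a short frame-shifting deletion in the first exon of Tti2, made with a zinc finger nuclease and kept as 1 line, and the wild-type littermates carried none. The labels give no treatment for either group. As the mutation is carried in every cell, an effect arising within a tissue and one reaching it through the circulation cannot be told apart. The methods describe the rats as males and call the fat depot perirenal, while the labels call it peritoneal. The age of the sequenced rats was not given in the sources used here. The 20 samples came from 11 rats, 6 wild type and 5 Tti2+/-, and 9 of them, 4 wild type and 5 Tti2+/-, gave both tissues. Wild-type rat 4 gave fat but no hippocampus, and wild-type rat 6 gave hippocampus but no fat.

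Tti2 works with Telo2 and Tti1 in the TTT complex, a co-chaperone that helps newly made kinases of the phosphatidylinositol 3-kinase-related family to fold and assemble. The clients include mTOR, which couples nutrient supply to growth, ATM, ATR and DNA-PKcs, which respond to DNA damage, SMG1, which acts in nonsense-mediated decay, and TRRAP, a scaffold of histone acetyltransferase complexes. White fat stores triglycerides and releases fatty acids in response to hormones. The hippocampus holds the dentate gyrus, where new neurons are formed in adult life. The comparison asks whether a lower dose of Tti2 was accompanied by the same changes of RNA level in a metabolic tissue and in the brain, or by different ones.

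The files give, for 31715 Ensembl transcripts in each sample, an estimated count, which is the number of reads that the authors' software assigned to the transcript and which need not be whole. They do not pair transcripts with gene names, and none of the identifiers matched the gene table used here. Transcripts of Tti2 itself, of the clients of the TTT complex and of markers of adipocytes and neurons were therefore not identified here. Whether any transcript below is one of them was not determined. The transcripts below are given by identifier, length or rank. A transcript was tested if, in each tissue, 5 or more of the 10 samples held 5 or more of its estimated counts. This left 18340 transcripts, while 1812 passed in fat only, 2306 in hippocampus only and 9257 in neither. Levels are given as CPM, the count scaled to the size of the library, after TMM, a normalization that sets most transcripts equal between samples, and they compare samples and not transcripts of different length.

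The total estimated count of a sample lay between 19176393 and 32713126. In fat it was lower in the Tti2+/- rats, with a median of 23564264 against 26259944 in wild type (two-sided exact permutation test, p = 0.048), and in hippocampus the medians were 20391869 and 22627220 (exact permutation test, p = 0.24). Each sample correlated better with the other samples of its own tissue (0.957 to 0.978, Pearson's r of log2 CPM over transcripts) than with those of the other tissue (0.601 to 0.637). The lowest own-tissue value belonged to wild-type rat 2 in hippocampus. The 980 transcripts at least 100-fold higher in hippocampus summed to 310 to 342 CPM in wild-type fat and to 298 to 342 CPM in Tti2+/- fat (exact permutation test, p = 0.94). The 330 transcripts at least 100-fold higher in fat summed to 422 to 613 CPM in wild-type hippocampus, with rat 2 highest, and to 428 to 528 CPM in Tti2+/- hippocampus (exact permutation test, p = 0.86). In these bulk samples, fewer cells of a type and less RNA per cell cannot be told apart.

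In edgeR, no transcript passed the test for a genotype difference that was unequal in fat and hippocampus. The tested quantity was the log2 fold change Tti2+/- against wild type in fat minus that in hippocampus, in edgeR's quasi-likelihood test with the rat as a block, so that each rat's fat was set against its own hippocampus. After Benjamini-Hochberg adjustment, 0 of 18340 transcripts (0%) had a p-value below 0.1, and the smallest was 0.984. Before adjustment, 705 transcripts (3.84%) had a p-value below 0.05, where an even spread of p-values gives 917. The count lay above 917 without wild-type rat 1, at 1294 (7.06%), and without both the block and the hippocampus of wild-type rat 2, at 940 (5.13%). Of the 705 in the main fit, 370 (2.02% of those tested) had the higher value in fat and 335 (1.83%) the lower. Without the block, which brings in the fat of wild-type rat 4 and the hippocampus of wild-type rat 6, edgeR again called 0 transcripts, with 812 (4.43%) at an unadjusted p-value under 0.05 and a smallest adjusted p-value of 0.200. The methods report that 1 hippocampus sample was left out as an outlier and do not name it, while the main fits here kept all 10. Without wild-type rat 2, whose hippocampus stood apart, edgeR with the block also called 0, with 831 transcripts (4.53%) at an unadjusted p-value under 0.05. The transcripts that passed the unadjusted limit in both the fit with the block and that without it, on all rats, numbered 425, or 60.3% of the 705 and 52.3% of the 812. The count of 0 depended on the software. DESeq2 with the rat block called 15 transcripts, with a smallest adjusted p-value of 0.00106, and limma voom with the rat as a random effect called 2.

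**Figure D1:**
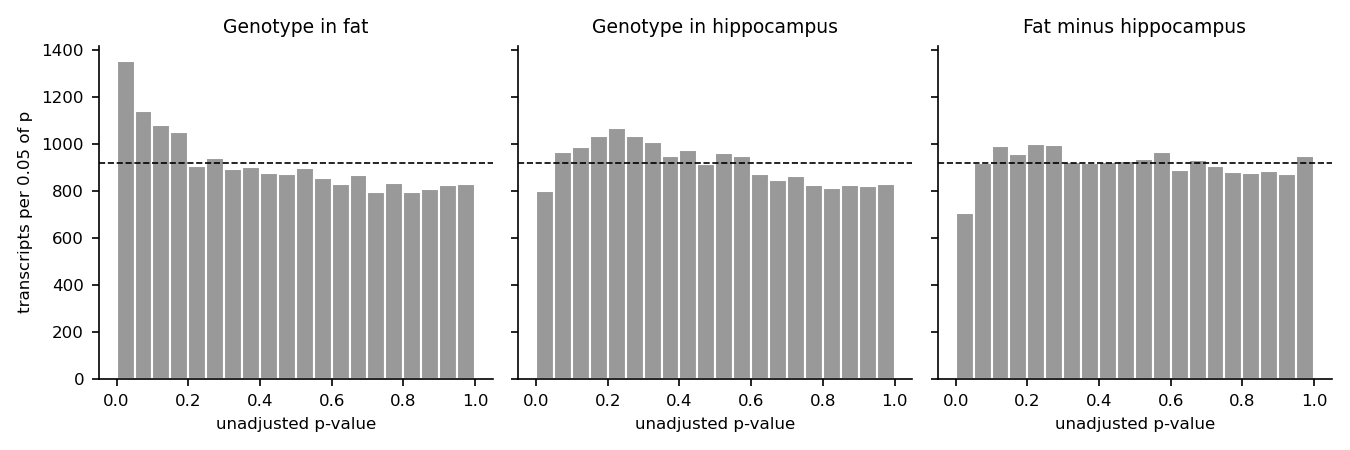
Histograms of the unadjusted p-values of 18340 transcripts for the genotype difference in fat, in hippocampus and for the difference between them, in bins of 0.05; the dashed line marks the 917 transcripts per bin of an even spread. The lowest bin holds 1350 transcripts in fat, 799 in hippocampus and 705 for the difference.

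The precision of the difference varied with the level of the transcript. The median size of the fat-minus-hippocampus difference was 0.14 on the log2 scale, and its median standard error (SE) was 0.20. The SE had a median of 0.59 for the 2953 transcripts under 1 CPM, 0.28 for the 6744 between 1 and 10 CPM, 0.12 for the 7771 between 10 and 100 CPM and 0.08 for the 872 at 100 CPM or more. For 12665 transcripts (69.1%) the 95% interval of the difference lay wholly within 2-fold in either direction, and for 8823 (48.1%) within 1.5-fold. For the 2-fold limit the share was 94.5% between 10 and 100 CPM but 11.0% under 1 CPM, so for most transcripts of the lowest class the interval reached a 2-fold difference.

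**Figure D2:**
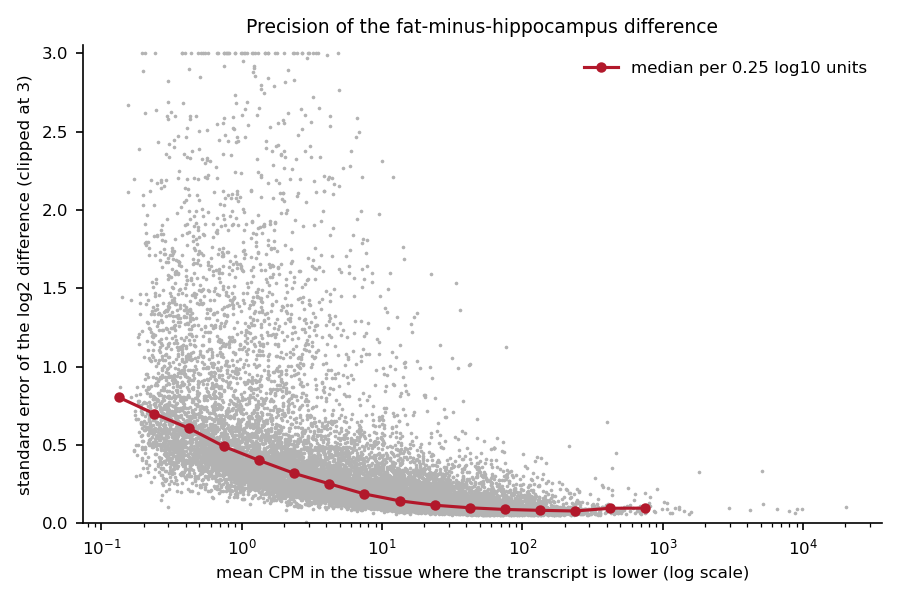
Standard error of the log2 fat-minus-hippocampus difference (vertical axis, clipped at 3) against the mean CPM in the tissue where the transcript is lower (log axis), with 1 grey point per transcript and the median per 0.25 log10 units in red. The median error falls with the level, from above 0.59 at the lowest levels to near 0.08 at 100 CPM.

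The share of small p-values for the difference varied little with the tissue in which a transcript was more abundant. Among the 1389 transcripts at least 8-fold higher in fat, 59 (4.25%) had an unadjusted p-value under 0.05, 40 of them with the higher value in fat and 19 with the lower. Among the 1457 transcripts at least 8-fold higher in hippocampus there were 65 (4.46%), 32 higher and 33 lower. Among the 9518 transcripts within 2-fold between the tissues there were 338 (3.55%), beside 3.84% over all transcripts. The median difference was 0.07 on the log2 scale in the fat-typical class, -0.03 in the hippocampus-typical class and -0.01 in the class of like level, beside a median of -0.002 over all transcripts.

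In each tissue taken alone, edgeR called at most 1 transcript. With the same limits, the DESeq2 software called 10 in fat and 9 in hippocampus. The median size of the genotype difference was 0.09 on the log2 scale in both tissues, with median SEs of 0.12 in fat and 0.13 in hippocampus. A call in a single tissue needed both an adjusted p-value below 0.1 and a change of 1.5-fold or more. In fat, edgeR called 0 transcripts (0%), with a smallest adjusted p-value of 0.278 and 1350 (7.36%) at an unadjusted p-value under 0.05. In hippocampus it called 1 (0.00545%), which fell, with 799 (4.36%) at an unadjusted p-value under 0.05. It also called 1 without wild-type rat 2. An unadjusted p-value under 0.05 in both tissues was found for 77 transcripts, which is 5.70% of the 1350 in fat and 9.64% of the 799 in hippocampus. Of these 77, 64 had the same direction in both tissues and 13 the opposite, where 8129 of all 18340 transcripts had opposite directions. The tissues came from the same rats, so the 2 lists do not rest on separate animals.

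**Figure D3:**
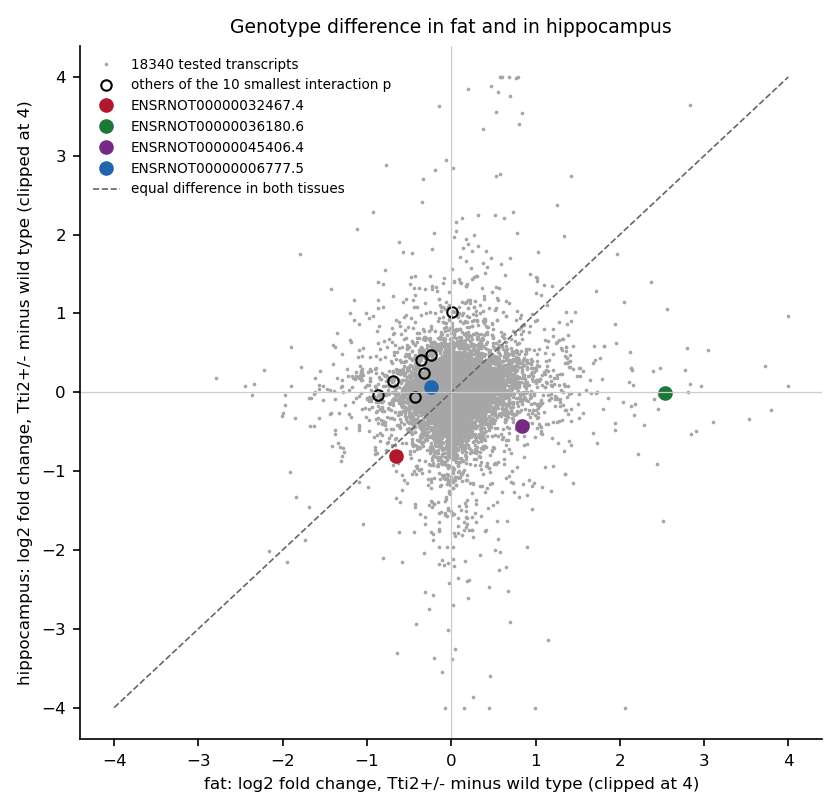
Log2 fold change Tti2+/- minus wild type in fat (horizontal) and hippocampus (vertical), both clipped at 4, for 18340 transcripts (grey), with 4 transcripts in colour, the others of the 10 with the smallest p-value for the difference as open circles, and a dashed line where both tissues change equally. ENSRNOT00000032467.4 lies close to that line at -0.65 and -0.81.

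The transcript called in hippocampus was ENSRNOT00000032467.4, of 1923 bases, which was singled out from earlier results of these data. In fat its level was 18.0, 16.4, 17.3, 15.1 and 18.4 CPM in wild-type rats 1 to 5, and 9.74, 10.3, 11.9, 12.2 and 9.75 CPM in Tti2+/- rats 1 to 5. In hippocampus it was 16.8, 18.7, 16.1, 17.2 and 17.3 CPM in wild-type rats 1, 2, 3, 5 and 6, and 9.55, 11.2, 9.13, 9.98 and 9.33 CPM in Tti2+/- rats 1 to 5. Every Tti2+/- sample lay below every wild-type sample in both tissues. The Tti2+/- mean was 63.2% of the wild-type mean in fat (10.8 ± 1.19 against 17.0 ± 1.30 CPM, SD, n = 5 each) and 57.0% in hippocampus (9.83 ± 0.82 against 17.2 ± 0.97 CPM). The log2 fold change was -0.81 (SE 0.073, edgeR adjusted p = 0.0085) in hippocampus and -0.65 (SE 0.088, edgeR adjusted p = 0.278) in fat, where no transcript passed the adjustment. As the transcript was chosen with its decrease in these samples known, the separation and the p-values describe that decrease and add no independent evidence of it.

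The decrease of ENSRNOT00000032467.4 did not differ detectably between the tissues. The fat-minus-hippocampus difference was 0.10 on the log2 scale (SE 0.13), with a 95% interval from -0.19 to 0.40 and rank 8409 of 18340 by p-value. It was 0.04 without Tti2+/- rat 3 or without wild-type rat 2, 0.06 without Tti2+/- rat 4 and 0.17 without Tti2+/- rat 2. Within the rats that gave both tissues, the log2 ratio of fat to hippocampus ranged from -0.19 to 0.10 in the 4 wild-type rats and from -0.12 to 0.39 in the 5 Tti2+/- rats. These ranges overlap, and the means of 0.03 and 0.13 did not differ in an exact permutation test (p = 0.47). With 4 and 5 rats that test cannot give a p-value below 0.0079.

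A genotype difference was also tested on the mean of each rat's fat and hippocampus log2 CPM, so that the rat was the replicate. A change in 1 tissue alone can also pass this test, so a call does not show that both tissues share the change. With limma, 3 transcripts (0.0164%) had an adjusted p-value under 0.1, 2 higher and 1 lower in Tti2+/- rats, and 1395 (7.61%) had an unadjusted p-value under 0.05. ENSRNOT00000032467.4 was lower by a log2 value of -0.76 (SE 0.061, limma adjusted p = 0.00325). It stayed between -0.75 and -0.74 in edgeR on the summed counts of both tissues, in edgeR without a rat block and in limma voom with the rat as a random effect, with adjusted p-values of 0.00628, 2.22e-06 and 3.96e-06.

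The other 2 transcripts called on the rat means had log2 fold changes of 2.54 and 0.80 in fat and of -0.01 and 0.09 in hippocampus, none of which passed the adjustment in edgeR. The first, ENSRNOT00000036180.6, had a mean log2 difference of 1.72 (limma adjusted p = 0.00325). The 4 wild-type rats in this test were at 0 in fat, so the value depends on the prior count. Wild-type rat 4, the only wild-type fat sample above 0, gave no hippocampus and was left out. The transcript also entered the test only through its fat counts in the Tti2+/- rats, so this call is no evidence of a difference. ENSRNOT00000036180.6 was called in none of the 3 other fits, with 1.82 (adjusted p = 0.207) in voom, 1.27 (adjusted p = 0.338) in edgeR without a block and, with the sign turned, -0.04 (adjusted p = 0.966) in edgeR on summed counts. The other, of 12093 bases, had 0.61 (limma adjusted p = 0.0949) on rat means. It too was called in none of the other 3, with 0.52 (adjusted p = 0.648) in voom, 0.44 (adjusted p = 0.504) in edgeR without a block and 0.89 (adjusted p = 0.252) on summed counts. In fat its level was 19.5, 29.5, 17.5, 49.5 and 31.9 CPM in wild type and 61.2, 53.7, 38.9, 42.6 and 60.1 CPM in Tti2+/-, which overlap through wild-type rat 4. In hippocampus it was 4.23 to 10.2 CPM in wild type and 4.82 to 8.58 CPM in Tti2+/-, which overlap throughout.

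The 10 transcripts with the smallest p-values for the difference between the tissues are described here as the upper end of the 18340 tested, since none passed the adjustment in edgeR (adjusted p = 0.984 for each). DESeq2 with the rat block called 5 of the 10. In 8 of them the difference was lower in fat and in 2 higher. The within-rat ratios of the genotypes did not overlap in any of the 10, where 281 of all transcripts (1.53%) had such a separation, 121 with higher and 160 with lower ratios in Tti2+/- rats. As the ranking uses the same values, this separation is a description of the members and no further evidence. The same holds for the separations within 1 tissue given below, whose share over all transcripts was not worked out. An unadjusted p-value under 0.05 was also found for 6 of the 10 in fat alone, for 5 in hippocampus alone and for 9 in the fit without the block.

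**Figure D4:**
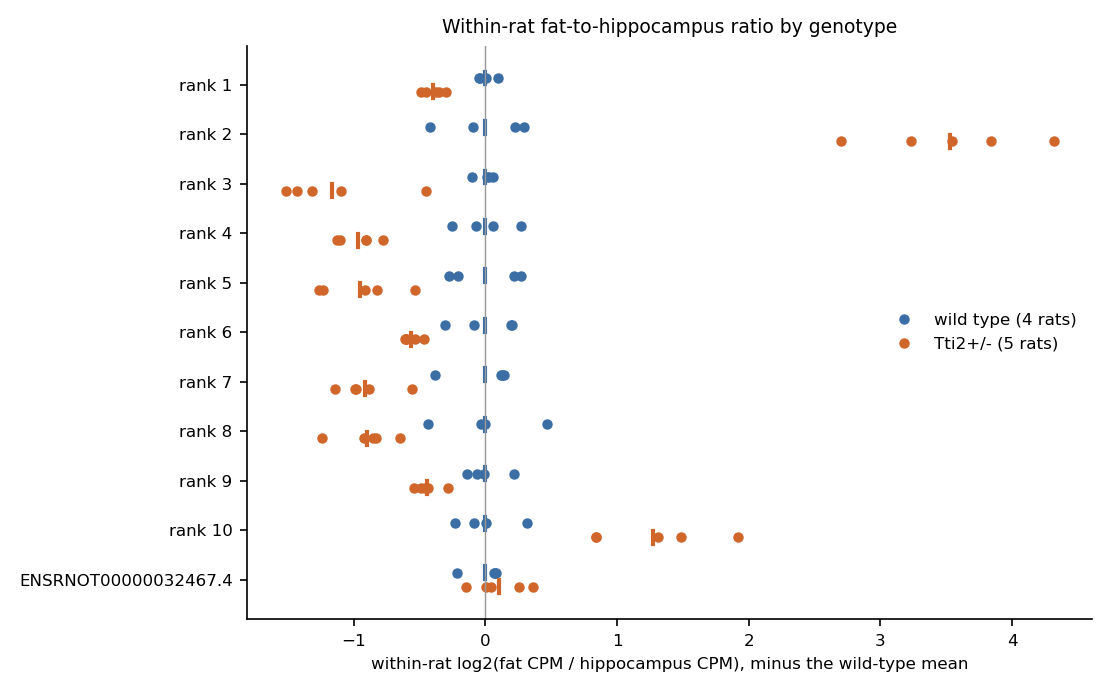
Within-rat log2 ratio of fat CPM to hippocampus CPM, minus the wild-type mean, for the 10 transcripts with the smallest p-values and for ENSRNOT00000032467.4; each point is 1 of 4 wild-type (blue) or 5 Tti2+/- (orange) rats, and vertical bars are means. The genotypes separate in the ranked transcripts and overlap in ENSRNOT00000032467.4; the positions at rank 2 depend on a prior count of 1, as 4 fat values are 0.

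Rank 1 was ENSRNOT00000006777.5, of 2089 bases, a transcript far more abundant in hippocampus. In fat it measured 10.7, 8.14, 10.1, 7.29 and 10.6 CPM in wild-type rats 1 to 5 and 7.46 to 8.13 CPM in the Tti2+/- rats. In hippocampus it measured 507, 426, 532, 537 and 524 CPM in wild-type rats 1, 2, 3, 5 and 6 and 502 to 570 CPM in the Tti2+/- rats. The genotypes overlap in each tissue taken alone, in fat through wild-type rat 4. Within rats, the log2 ratio of fat to hippocampus was -5.71 to -5.56 in wild type and -6.14 to -5.96 in Tti2+/-, which do not overlap. The difference was -0.40 (SE 0.066, 95% interval -0.54 to -0.25), and -0.31 (SE 0.13) in the fit without the block, which gives weight to the low fat value of wild-type rat 4. Without wild-type rat 2, which had the lowest hippocampal value, it was again -0.40 (SE 0.065).

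Rank 2 was ENSRNOT00000036180.6, of 1836 bases, at the edge of detection in fat. In fat it was at 0 in wild-type rats 1, 2, 3 and 5 and at 8.66 estimated counts (0.408 CPM) in wild-type rat 4, while the 5 Tti2+/- rats had 7.19 to 14.9 estimated counts (0.292 to 0.681 CPM). In hippocampus it was at 39.6 to 65.0 CPM in wild type and 39.2 to 55.7 CPM in Tti2+/-, which overlap throughout. The transcript entered the test only because its fat counts were high enough in the 5 Tti2+/- rats, which met the limit without wild-type rat 4. The value of wild-type rat 4, which gave no hippocampus and so has no within-rat ratio, lies inside the range of the Tti2+/- rats. The fitted log2 difference of 6.48 depends on a small prior count and is no bound, and it was 2.56 (SE 0.72) in the fit that includes the fat of wild-type rat 4.

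Rank 10 was ENSRNOT00000045406.4, of 1806 bases, whose estimated changes had opposite directions in the 2 tissues. In fat it measured 4.29, 5.21, 3.25, 3.76 and 3.75 CPM in wild type and 8.45, 10.6, 5.58, 5.80 and 5.67 CPM in Tti2+/-, which do not overlap. In hippocampus it measured 3.03, 2.50, 2.06, 2.24 and 1.72 CPM in wild type and 1.79, 1.65, 1.86, 1.93 and 1.35 CPM in Tti2+/-, which overlap through wild-type rat 6. The log2 fold change was 0.84 (SE 0.21) in fat and -0.42 (SE 0.19) in hippocampus, and the difference was 1.29 (SE 0.28, 95% interval 0.67 to 1.91). Neither change passed the adjustment within its tissue (edgeR adjusted p = 0.64 in fat and 0.93 in hippocampus). The log2 ratio of fat to hippocampus was 0.50 to 1.05 in wild-type rats and 1.57 to 2.65 in Tti2+/- rats.

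**Figure D5:**
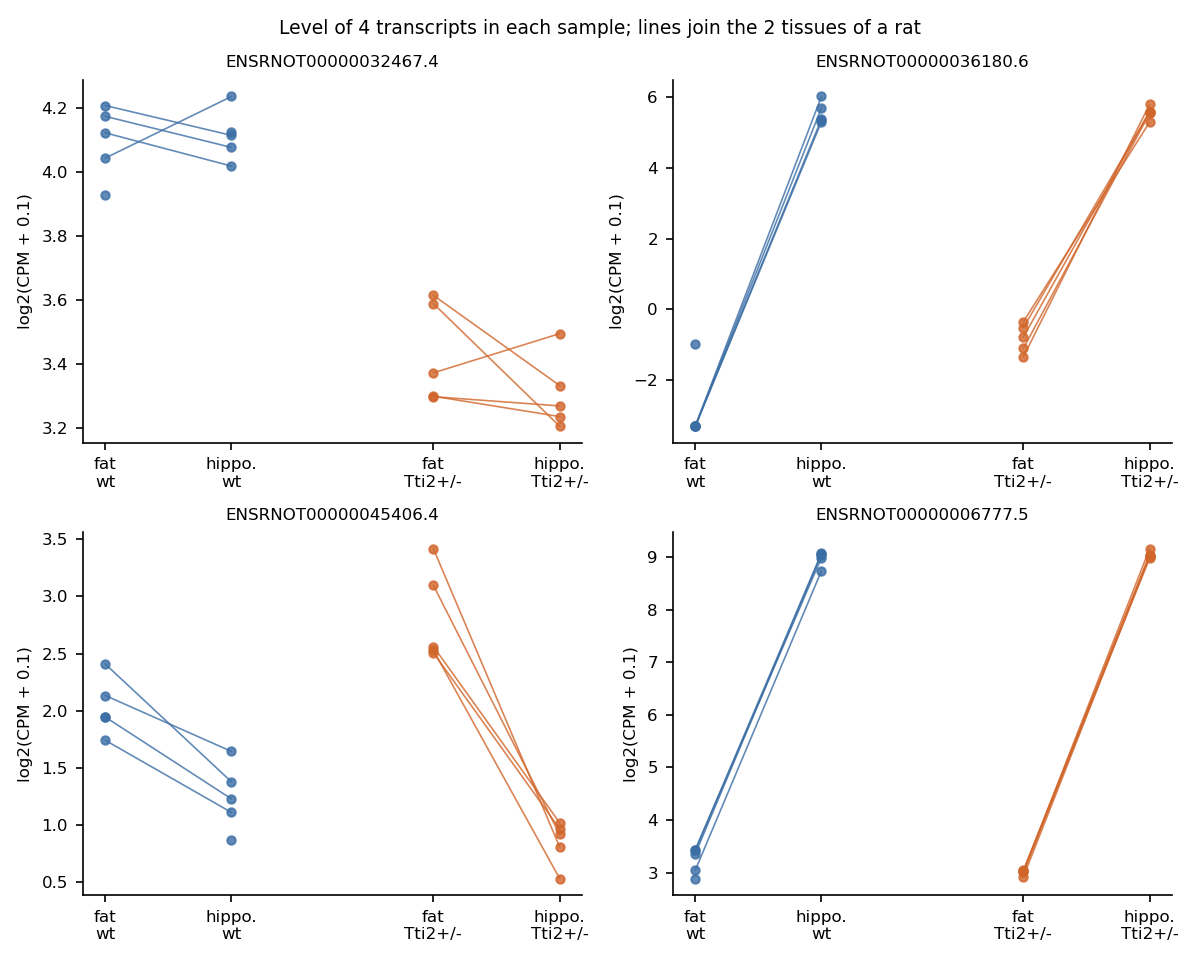
Level of 4 transcripts in each sample as log2(CPM + 0.1), wild type in blue and Tti2+/- in orange; each point is 1 sample and a line joins the fat and hippocampus of 1 rat, so unjoined points are wild-type rats 4 and 6. ENSRNOT00000032467.4 is lower in both tissues of every Tti2+/- rat, whereas ENSRNOT00000045406.4 is higher in fat and mostly lower in hippocampus.

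Among ranks 3 to 9, the transcript of 3595 bases at rank 6 was separated between the genotypes in both tissues and in opposite directions. In fat it was at 33.7, 29.6, 24.6, 28.0 and 27.9 CPM in wild type and at 22.9, 21.0, 22.5, 24.5 and 23.5 CPM in Tti2+/-. In hippocampus it was at 50.5, 44.8, 52.5, 51.3 and 49.1 CPM in wild type and at 60.5, 55.2, 59.1, 58.6 and 58.8 CPM in Tti2+/-. The fat ranges nearly meet, and the hippocampal ranges are further apart. The log2 fold change was -0.32 (SE 0.080) in fat and 0.24 (SE 0.050) in hippocampus, and the difference was -0.57 (SE 0.11, 95% interval -0.82 to -0.32). Neither change passed the adjustment within its tissue (edgeR adjusted p = 0.64 in fat and 0.93 in hippocampus). This transcript had the smallest adjusted p-value (0.200) in edgeR without the block, and its value there was also -0.57.

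Of these transcripts, 2 changed more in fat, though neither passed the adjustment there (edgeR adjusted p = 0.48 for each). That of 3156 bases (rank 8) was at 17.8 to 29.7 CPM in wild-type fat and 11.4 to 15.6 CPM in Tti2+/- fat, which do not overlap, and had a log2 fold change of -0.69 (SE 0.13) in fat and 0.14 (SE 0.14) in hippocampus. That of 4156 bases (rank 9) was at 32.1, 34.0, 32.1, 26.4 and 31.7 CPM in wild-type fat and 21.4 to 26.5 CPM in Tti2+/- fat, which overlap through wild-type rat 4, and at 26.5 to 32.1 and 26.9 to 29.2 CPM in hippocampus. The transcript of 2171 bases (rank 5) changed more in hippocampus, though it did not pass the adjustment there (edgeR adjusted p = 0.93). It was at 5.26 to 10.2 CPM in wild type and 12.5 to 21.6 CPM in Tti2+/- there, without overlap, and at 34.8 to 62.2 and 36.0 to 55.3 CPM in fat, with overlap throughout.

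The remaining transcripts of the 10 were low in 1 of the tissues. The transcript of 5418 bases (rank 3) was at 3.08, 2.49, 3.46, 0.362 and 3.33 CPM in wild-type fat and at 1.19, 1.18, 2.27, 0.96 and 1.33 CPM in Tti2+/- fat. Wild-type rat 4 thus lay below all Tti2+/- rats, and the difference of -1.15 (SE 0.20) with the block became -0.84 (SE 0.41) without it. The transcripts of 1518 bases (rank 4, at 1.18 to 2.07 CPM in fat) and 1399 bases (rank 7, at 1.77 to 3.59 CPM in hippocampus) had differences of -0.98 (SE 0.19) and -0.92 (SE 0.19).

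The fat of wild-type rat 4, which has no weight in the fit with the block, fell outside the range of the other 4 wild-type fat samples in 6 of the 10 transcripts (60%), against 43.6% of all transcripts tested. It was nearer to the Tti2+/- mean than to that of the other wild-type rats in 6 of the 10, in 59.3% of the 705 transcripts with an unadjusted p-value under 0.05, and in 52.9% of all transcripts. For the hippocampus of wild-type rat 6, also without weight, these figures were 6 of the 10, 56.2% and 53.7%. Neither sample entered the estimates that ranked the transcripts, and in each of these sets both were nearer to the Tti2+/- mean more often than not. That held over all transcripts too, and the Tti2+/- mean rests on more samples than that of the other wild-type rats. An excess of this kind can therefore arise without a genotype effect. Nearness within a tissue also does not measure the difference between the tissues. The shares are thus a description and cannot test the ranking.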

How the data were processed

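The authors made strand-specific libraries of polyadenylated RNA and quantified them with kallisto (0.46.0 in the submitters' processing notes, a later patch release in the methods) against Ensembl transcripts. The deposited tables hold estimated counts, which kallisto splits between transcripts that share reads, and TPM. TPM was not tested. The variance that kallisto estimates by resampling reads was not used here. Estimated counts were rounded to whole numbers. Interactions were tested with edgeR 4.0.16 (R 4.3.3; TMM over both tissues, rat block, quasi-likelihood F-test), each tissue with genotype as the only term, and rat means of log2 CPM (prior count 1) with limma 3.58.1. The SE of an edgeR fit is the size of the log2 fold change divided by the square root of F, and the limma SE comes from the limma fit. DESeq2 1.42.0 and further settings were alternatives, and the scripts were tested on simulated data. The total estimated count lay between 19176393 and 32713126.

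Genotype, tissue and rat number came from the labels, and a number marks the same animal in both tissues of a genotype. Deviations of a rat's 2 tissues from their group means correlated at -0.03 to 0.07 in 9 rats, and 2 of the 9 correlated best with their own rat. The members, transcripts and lists were chosen with earlier results of these data known. Identifiers were limited to 4: ENSRNOT00000032467.4, and the smallest interaction p-values in each direction (2 higher and 1 lower in fat). Planned lists of named genes and cell type markers need gene names and were not run.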

Additional observations from a re-analysis of the deposited data

Results flagged for a closer look

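In 64 groups of 5 samples, 5 had an end value whose gap to the nearest sample exceeded the critical share of the range, 0.71. Chance gives about 1 in 20 groups, or 3.2 here. The hippocampus of wild-type rat 2 accounted for 3 of these. Its correlation with its own tissue was the lowest (0.957, gap 0.784 of the range), its summed level of fat-typical transcripts the highest (613 CPM, gap 0.806), and its level of ENSRNOT00000006777.5 the lowest (426 CPM, gap 0.732). In fat, Tti2+/- rat 3 was highest for the transcript of 5418 bases (2.27 CPM, gap 0.714), and wild-type rat 4 was the only wild-type sample of ENSRNOT00000036180.6 above 0 (0.408 CPM, gap 1.0).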

How the results depend on the processing

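The count of 0 transcripts differing between the tissues became 2 with limma voom and the rat as a random effect, 15 with DESeq2 and the rat block, and 1 without the block and without the fat of wild-type rat 4. Leaving out each rat in turn gave 0 to 1, with 1 without Tti2+/- rat 3 (the transcript at rank 3, of 5418 bases, adjusted p = 0.0245) and 1 without wild-type rat 5 (a transcript of 5403 bases, adjusted p = 0.0817), and 545 to 1294 at an unadjusted p-value under 0.05, the most without wild-type rat 1. Of the 15 from DESeq2, 8 were higher and 7 lower in fat, 7 had samples at 0, and 5 were among the 10 transcripts ranked first by edgeR. The transcript of 3595 bases was called by voom (adjusted p = 0.0917) and by DESeq2 (adjusted p = 0.0507). ENSRNOT00000036180.6 was the transcript called without the block and without the fat of wild-type rat 4 (edgeR adjusted p = 0.0369). DESeq2 with the rat block also called it (adjusted p = 0.00106). Neither fit gives weight to that fat sample, the only wild-type one above 0, so these calls are no further evidence of a difference.

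The 3 calls on the mean of both tissues became 10 with voom, and 2 to 5 when each rat was left out, 5 without Tti2+/- rat 2. In fat the 0 calls became 10 with DESeq2 (5 higher, 5 lower) and stayed at 0 without each sample in turn. In hippocampus the 1 call became 9 with DESeq2, 2 with limma on log2 CPM, and 1 to 2 without each sample, 2 without Tti2+/- rat 3. The cause was not tested. Calls in the other settings kept within 1.5 times these counts, and none of the differences between the tissues of the 4 identified transcripts changed sign. The genotype difference of ENSRNOT00000036180.6 over both tissues together did, from 1.72 on rat means to -0.04 on summed counts. Without the replicate block, ENSRNOT00000032467.4 differed between the tissues by 0.15 on the log2 scale. With the block and each rat left out in turn, it differed by 0.04 to 0.17. The fits added after the data were seen were the one without wild-type rat 4's fat, summed counts, and limma on log2 CPM in each tissue. Intervals were widest under 1 CPM, where the parts of depth and of the spread between rats were not tested, and they do not cover the uncertainty of assigning reads between transcripts.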
